A study of Mus musculus with 15 samples.

Results

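The comparison described here is that of mammary epithelial organoids kept beside FGF10-soaked beads for 72 h with organoids kept beside BSA-soaked beads for the same time. All libraries came from mice with the genotype label WT, and both groups were cultured in DMEM/F12 with L-Ala-Gln, ITS and antibiotics, per the labels' protocols. Apart from the replicate numbers, the soaked protein is the only labelled difference, and of these 2 groups FGF10 alone holds a replicate 4. BSA, bovine serum albumin, is the carrier protein control. The 2 groups were chosen by their treatment labels and make up 6 of the 15 libraries of the series, which also holds FGF10 and BSA groups at 36 h and a 0 h group. The FGF10 72 h libraries are replicates 2, 3 and 4, and the BSA 72 h libraries are replicates 2_1, 2_2 and 3. Their titles spell the factor FGF0; here the treatment label, FGF10, was taken as correct. The series asked whether an epithelial-mesenchymal transition (EMT) takes place while mammary epithelium migrates as a group. Neither the age of the mice nor the number pooled per library is given in the labels.

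FGF10 is a fibroblast growth factor made by stromal cells that acts on the epithelial splice form of the receptor FGFR2 in the presence of heparan sulfate. The receptor signals through the RAS and ERK pathway to ETS transcription factors such as ETV4 and ETV5, and the same pathway switches on its own inhibitors, the Sprouty and DUSP proteins. In the mammary gland FGF10 signalling is needed for the bud to form, and the epithelium consists of an inner luminal layer, marked by KRT8 and KRT18, and an outer basal layer of contractile myoepithelial cells, marked by KRT5 and KRT14.

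Levels are given as CPM, counts scaled to a common library size. The 72 h libraries held 12438853 to 16582856 counted fragments with FGF10 and 15784623 to 17763860 with BSA. The leading component of the 6 libraries took 69.9% of the variance and parted the groups, with FGF10 scores of 23.2, 28.8 and 47.5 and BSA scores of -31.0, -32.0 and -36.5. FGF10 replicate 4 lay farthest out on it. Transcripts of the mitochondrial genome made up 4.31 ± 0.363% of counts with FGF10 and 2.45 ± 0.210% with BSA (mean ± SD, n = 3 each, exact permutation p = 0.1, two-sided, the smallest that 3 against 3 allows). The BSA libraries 2_1 and 2_2 were closer to each other than to replicate 3, with a mean chi-square of 4.32 per gene between them and of 11.7 and 9.58 against replicate 3. They differed by more than counting noise, and whether they come from 1 culture is not labelled. The labelled cell type is epithelial: Epcam ran from 1825 to 2065 CPM with FGF10 and from 1479 to 1606 with BSA, and Krt18 from 4662 to 4828 and from 4416 to 4704. Markers of other cells were present at lower levels, as described at the end, and the lymphocyte gene Cd3e had 0 counts with FGF10 and 3 with BSA over the 3 libraries of each group.

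At 72 h FGF10 organoids carried more transcript of basal and stress keratins and sterol synthesis enzymes, and of some ERK targets and epithelial cytokines. They carried less of chemokines, antigen presentation genes and markers of fat, vessels and macrophages. Of 18140 tested genes, out of 54456 in the table, edgeR's quasi-likelihood test called 1087, or 5.99%, at a Benjamini-Hochberg adjusted p under 0.05. Of these, 546 rose (3.01% of genes) and 541 fell (2.98%). These 2 shares are to be set beside each list count of this fit below. The falls were larger, with a median log2 difference of -1.36 among them and of 0.86 among the rises, and 370 falls against 220 rises were at least 2-fold. Over all tested genes the median log2 difference was -0.01, with quartiles of -0.31 and 0.26. The libraries of the 2 groups did not overlap for 7921 genes (43.7%), which included all 1087 called genes.

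The count moved with the treatment of the BSA libraries and with the libraries in the fit. With BSA 2_1 and 2_2 summed and counted as 1 sample, 135 genes (0.723%) rose and 142 (0.76%) fell, and all 277 were among the 1087. Without FGF10 replicate 4, 88 rose and 60 fell, the lowest counts when any 1 of the 6 libraries was left out. A fit of the 6 libraries alone called 2559 rises (15.2%) and 2466 falls (14.6%). Of 154 named genes that were called, 44 kept the call under all 18 alternatives, and these are called firm below. For the others the libraries whose omission ended the call are given with the adjusted p. Calls were also lost in other alternatives, mostly not given gene by gene. They numbered 86 of the 154 with the BSA libraries summed, 37 with no low-count filter and 30 with the replicate number as a block. In the reported fit, p-values measure the spread within groups over all 15 libraries of the series, and this spread may be technical.

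**Figure D1:**
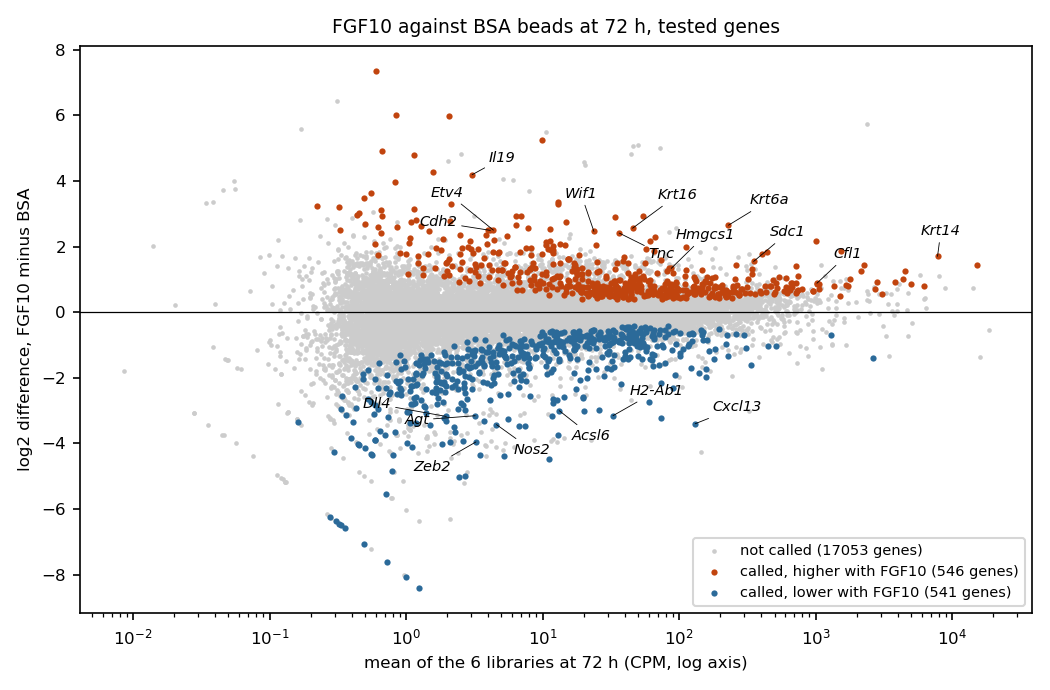
Log2 difference of FGF10 minus BSA at 72 h (vertical axis) against the mean CPM of the 6 libraries (horizontal log axis) for the tested genes, each point 1 gene, coloured where called. The called rises have a median of 0.86 and the called falls of -1.36, and 18 genes described in the text are labelled.

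The keratins of the basal layer and of stressed epithelium rose with FGF10. Of 8 such genes tested, 6 rose, 0 fell and 2 did not pass, with a median log2 difference of 1.79, beside 3.01% of all tested genes that rose and a median of -0.01. The 6 were called under every alternative run, the summed BSA libraries included. Krt14, the keratin of basal cells, stood at 11963, 10293 and 13624 CPM in the 3 FGF10 libraries, against 3392, 3690.5 and 3917 CPM in the 3 BSA libraries. Every FGF10 library lay far above every BSA library, and the rise was 3.26-fold (log2 difference 1.71 ± 0.19, SE, adjusted p = 0.000593). Its partner Krt5 had 3068, 2833 and 3229.6 CPM with FGF10 and 1214, 1308 and 1337 CPM with BSA. The groups did not overlap, and Krt5 rose 2.37-fold (1.24 ± 0.15, adjusted p = 0.00061).

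The keratins that epidermis makes after wounding rose by more than Krt5 and Krt14. Krt16 stood at 70.5, 63.5 and 99.9 CPM with FGF10 and at 13.7, 15.5 and 10.5 CPM with BSA, a 5.90-fold rise (2.56 ± 0.27, adjusted p = 0.000593). Krt6a had 327, 314 and 549 CPM with FGF10 against 57.0, 62.5 and 69.7 CPM with BSA, a 6.29-fold rise (2.65 ± 0.45, adjusted p = 0.00822). FGF10 replicate 4 was the highest library for both genes, and neither gene overlapped between the groups. Krt6b rose 7.71-fold (adjusted p = 0.00406) and Krt17 3.66-fold (adjusted p = 0.00332). Reads shared between these near-identical keratins were not counted, so their split among Krt6a, Krt6b, Krt14, Krt16 and Krt17 is uncertain.

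The basal transcription factor Trp63 did not move with the keratins, at 57.8, 62.5 and 72.3 CPM with FGF10 and 51.0, 53.7 and 67.4 CPM with BSA, where the groups overlapped (0.16 ± 0.16, adjusted p = 0.586). Of 6 luminal and simple keratins, Krt19 alone rose, 1.73-fold (0.79 ± 0.20, adjusted p = 0.0336), and lost the call without any 1 of the 6 libraries (adjusted p from 0.0689 to 0.155). Krt8 averaged 3462 ± 348 CPM in FGF10 organoids and 2377 ± 106 in BSA organoids (SD, n = 3 each, adjusted p = 0.161). Krt18 averaged 4750.4 ± 83.4 CPM in FGF10 organoids and 4544 ± 147 in BSA organoids (adjusted p = 0.924). The simple keratin list had a median of 0.42. In bulk RNA, more cells of a type and more RNA per cell cannot be told apart, here and in all results that follow. Krt4, a keratin of wet stratified epithelia, rose 7.57-fold to 76.0, 82.1 and 129 CPM with FGF10, against 9.49, 13.96 and 14.4 CPM with BSA (adjusted p = 0.0246). Its call was lost without BSA 2_1, BSA 2_2, BSA 3, FGF10 3 or FGF10 4 (adjusted p from 0.0532 to 0.112).

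Desmosomes, the junctions that anchor keratin filaments, showed the same direction. Of 11 desmosome genes 5 rose and 0 fell, with a median of 0.45, and 3 to 5 were called when 1 library was left out. The desmosomal cadherin Dsg3 stood at 30.7, 32.9 and 55.4 CPM with FGF10 and 10.2, 10.4 and 8.14 CPM with BSA, and Dsc3 at 18.4, 15.6 and 22.7 CPM with FGF10 and 5.95, 5.13 and 3.98 CPM with BSA. Both were clear of overlap, and they rose 4.14-fold (2.05 ± 0.24, adjusted p = 0.00061) and 3.76-fold (1.91 ± 0.30, adjusted p = 0.00391). The plaque protein Pkp1 rose 1.82-fold (adjusted p = 0.00558). These 3 calls were firm, while those of Perp (1.80-fold, adjusted p = 0.0111) and Pkp3 (1.36-fold, adjusted p = 0.0396) were not. Perp lost its call without BSA 2_2, BSA 3 or FGF10 4 (adjusted p from 0.0506 to 0.0593) and Pkp3 without any 1 of the 6 (from 0.0636 to 0.205). Cornified envelope genes, which mark the dead outer layer of skin, did not follow: of 19 tested 1 rose and 2 fell, with a median of -0.26, and 0 were called without FGF10 4 or with the BSA libraries summed. The envelope protein Lor fell to 8.08, 6.34 and 2.25 CPM with FGF10, against 41.9, 35.4 and 25.3 CPM with BSA (6.18-fold lower, adjusted p = 0.0166, but from 0.0541 to 0.0787 without BSA 2_1, BSA 2_2, FGF10 3 or FGF10 4). Another envelope gene, Sprr1b, was counted 60 times in FGF10 organoids and 2 times in BSA organoids (a 36.8-fold ratio, 95% counting interval of 9.75 to 311, adjusted p = 0.0181). Its call was lost without BSA 2_2, BSA 3 or FGF10 4 (adjusted p from 0.0795 to 0.097). Tight junction and polarity genes had a median of 0.01, with 0 of 24 called by edgeR, 1 at an unadjusted p under 0.05, 0 in DESeq2 and 1 in limma voom.

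Targets of FGF and ERK signalling rose in part. Of 26 listed targets 4 rose and 0 fell, with a median of 0.32, and 2 or 3 were called when 1 library was left out. Etv4, an ETS factor induced by FGF receptors, stood at 5.004, 7.52 and 9.75 CPM with FGF10 and 1.23, 1.71 and 0.981 CPM with BSA. All FGF10 libraries lay above all BSA libraries, and the rise of 5.66-fold (2.50 ± 0.35, adjusted p = 0.00194) was firm. The ERK phosphatase Dusp7 had 34.7, 43.1 and 54.1 CPM with FGF10 and 24.1, 25.5 and 23.3 CPM with BSA, and its 1.81-fold rise (adjusted p = 0.00547) was firm as well. Dusp6 rose 1.93-fold (adjusted p = 0.026) and Etv5 2.197-fold (adjusted p = 0.0376). Dusp6 lost its call without BSA 2_1, BSA 2_2, BSA 3, FGF10 3 or FGF10 4 (adjusted p from 0.0506 to 0.152) and Etv5 without any 1 of the 6 (from 0.0549 to 0.185). The feedback inhibitor Spry4 overlapped between the groups, at 1.15, 1.605 and 1.71 CPM with FGF10 and 1.44, 1.30 and 1.85 CPM with BSA (adjusted p = 0.957). Of 15 immediate early transcription factors edgeR, DESeq2 and limma voom each called 0, with 1 at an unadjusted edgeR p under 0.05 and a median of -0.07.

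Among 20 tested FGF receptors, ligands and binding proteins 2 rose and 0 fell, with a median of 0.02, and 1 rose without FGF10 4 or with the BSA libraries summed. Sdc1, a heparan sulfate proteoglycan that binds growth factors at the cell surface, stood at 395, 479 and 698 CPM with FGF10 and 179, 193 and 164 CPM with BSA. The lowest FGF10 library was above the highest BSA library, and the 2.93-fold rise (1.55 ± 0.19, adjusted p = 0.00061) was firm. Fgfbp1, which releases FGFs from matrix, rose 2.81-fold (adjusted p = 0.0176) and lost the call without BSA 2_1, BSA 2_2, BSA 3 or FGF10 4 (adjusted p from 0.0661 to 0.0949). Fgfr2 had 56.3, 75.1 and 57.6 CPM with FGF10 and 70.2, 75.2 and 77.7 CPM with BSA (-0.24 ± 0.20, adjusted p = 0.497). Fgfr2 counts were taken over an unusually wide annotated span and may hold more than the receptor's own exons.

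Sterol synthesis enzymes rose together. Of 25 genes of cholesterol synthesis and uptake 15 rose, 0 fell and 10 did not pass, 24 of the 25 stood higher with FGF10, and the median log2 difference was 0.83. The count was 9 with BSA 2_1 and 2_2 summed, and from 6 (without FGF10 4) to 15 when 1 library was left out. The promoters of Hmgcs1 and Nsdhl, 2 enzymes of the pathway with firm rises, are shown because they carry CCAAT boxes, a motif common in genes of this pathway. They are the 250 bases before each gene's start in RefSeq on GRCm38.p6, plus strand, at chr13:119690101-119690350 and chrX:72918271-72918520. Capitals mark CCAAT, which reads ATTGG on this strand, and in Hmgcs1 also 1 match to TCACNCCAC, a sterol response element form.
Hmgcs1: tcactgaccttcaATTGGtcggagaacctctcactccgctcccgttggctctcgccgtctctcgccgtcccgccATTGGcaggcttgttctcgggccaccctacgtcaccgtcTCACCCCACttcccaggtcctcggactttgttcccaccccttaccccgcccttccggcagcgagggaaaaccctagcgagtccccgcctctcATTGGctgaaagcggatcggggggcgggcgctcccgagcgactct
Nsdhl: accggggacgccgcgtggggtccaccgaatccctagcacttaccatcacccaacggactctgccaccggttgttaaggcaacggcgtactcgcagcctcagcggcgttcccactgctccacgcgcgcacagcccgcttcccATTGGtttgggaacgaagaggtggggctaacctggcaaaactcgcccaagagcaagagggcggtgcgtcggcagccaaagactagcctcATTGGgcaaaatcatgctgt
The Hmgcs1 window holds 3 CCAAT boxes and the Nsdhl window 2. Both strands were searched for these motifs, chosen after values were seen, and for TGANTCA (AP-1) and CCGGAA (ETS), which are not capitalised. No 2 matches overlap in these windows. CCAAT occurred in 16 of 20 promoters (80%) of the 17 pathway genes found in RefSeq, beside 33.8% of all 32851 promoters. Of the 13 promoters of pathway genes called higher, 9 (69.2%) held it, so it was no commoner among the rises. TCACNCCAC occurred in 1 of the 20, beside 1.05% of all, TGANTCA in 2 (10%), beside 6.75%, and CCGGAA in 3 (15%), beside 12%. Hmgcs1 is among these 3, where CCGGAA lies 81 to 86 bases before the start. Among promoters of the tested genes in RefSeq, CCAAT occurred in 35%, TCACNCCAC in 0.988%, TGANTCA in 4.96% and CCGGAA in 19.9%. A match describes the letters and is no evidence of binding.

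Along the pathway, rises ran from its first steps to its last. Hmgcs1, which makes HMG-CoA, stood at 100.5, 113 and 164 CPM with FGF10 and 52.7, 47.4 and 48.9 CPM with BSA, a 2.53-fold rise (1.34 ± 0.23, adjusted p = 0.00653). FGF10 replicate 4 was the highest library for Hmgcs1, and the groups did not overlap. Of the late enzymes, the lanosterol demethylase Cyp51 rose 2.29-fold (adjusted p = 0.00505). Nsdhl, which acts after it, had 48.1, 51.4 and 66.5 CPM with FGF10 and 33.2, 28.6 and 31.3 CPM with BSA, a 1.78-fold rise (0.83 ± 0.14, adjusted p = 0.00505). These 3 calls were firm. The isomerase Idi1 rose 2.96-fold, with 53.4, 56.3 and 63.2 CPM with FGF10 and 20.1, 16.7 and 21.5 CPM with BSA (adjusted p = 0.00822), and kept its call under all 18 alternatives. The squalene epoxidase Sqle (0.50 ± 0.17, adjusted p = 0.0902) and Srebf2, the transcription factor of the pathway (0.67 ± 0.22, adjusted p = 0.0858), were higher without passing.

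**Figure D2:**
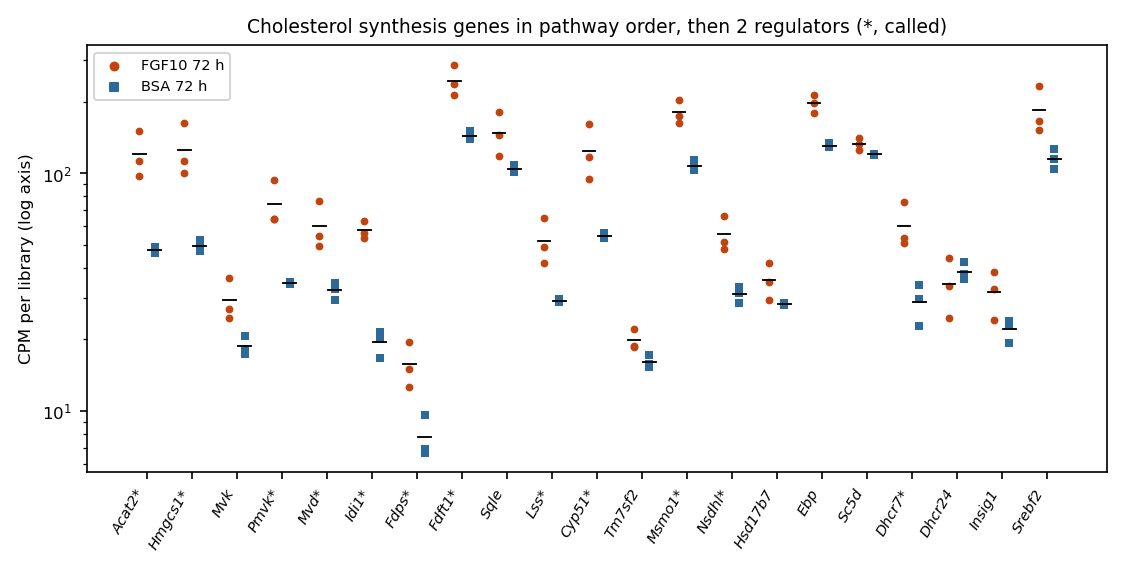
CPM in each library (vertical log axis) for 21 genes, those of cholesterol synthesis in pathway order followed by the regulators Insig1 and Srebf2; circles are FGF10 72 h libraries, squares BSA 72 h libraries, bars the mean of 3, and asterisks mark called genes. Hmgcs1 lies between 100.5 and 164 CPM with FGF10 and between 47.4 and 52.7 with BSA, and the circles lie above the squares for most genes.

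Genes of fatty acid synthesis rose in fewer cases. Of 20 genes 5 rose and 0 fell, with a median of 0.49, but 0 to 6 were called when 1 library was left out, 0 of them without FGF10 4, and 1 with the BSA libraries summed. Acly, which makes cytosolic acetyl-CoA, had 131, 159 and 228 CPM with FGF10 and 81.5, 87.6 and 90.5 CPM with BSA (1.999-fold, adjusted p = 0.0108). The groups were apart, and the call was lost without BSA 2_1 or FGF10 4 (adjusted p of 0.052 and 0.0663). The elongase Elovl6 rose 1.96-fold (adjusted p = 0.0137, but from 0.0541 to 0.0932 without BSA 2_1, BSA 2_2, BSA 3 or FGF10 4). The synthase Fasn did not pass, with means of 137 ± 31.1 CPM in FGF10 organoids and 95.1 ± 4.83 in BSA organoids (adjusted p = 0.0556).

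Glycolysis and hypoxia genes ran the other way. Of 35 genes 8 fell and 2 rose, with a median of -0.59. The falls numbered 1 with the BSA libraries summed, and 0 to 4 when 1 library was left out, 0 of them without FGF10 4. Pfkp, a phosphofructokinase, stood at 103, 127 and 88.5 CPM with FGF10 and 170.2, 185 and 217 CPM with BSA, without overlap (1.80-fold lower, adjusted p = 0.00653, or 0.0539 without FGF10 4). The lactate exporter Slc16a3 fell to 19.4, 14.7 and 6.88 CPM with FGF10, against 61.1, 69.7 and 54.4 CPM with BSA (4.52-fold lower, adjusted p = 0.0224). Adm, a hypoxia-induced peptide, fell 7.87-fold to 9.56, 6.84 and 1.28 CPM with FGF10, against 49.1, 51.0 and 38.4 CPM with BSA (adjusted p = 0.0264). FGF10 replicate 4 was lowest for all 3 genes. Both of the last calls were lost without BSA 2_1, BSA 2_2, BSA 3, FGF10 3 or FGF10 4 (adjusted p from 0.0573 to 0.107 for Slc16a3 and from 0.0696 to 0.0829 for Adm). The hypoxia-induced carbonic anhydrase Car9 rose 2.23-fold (adjusted p = 0.0168, but from 0.0644 to 0.107 without BSA 2_1, BSA 2_2, BSA 3 or FGF10 4), so the list did not move as 1 block.

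Stress response genes were lower in a few cases. Of 28 genes of the integrated stress and unfolded protein response 4 fell and 0 rose, with a median of -0.05, and the falls numbered 0 without FGF10 4 and 2 with the BSA libraries summed. Chac1, a glutathione-degrading ATF4 target, had 3.40, 2.70 and 2.92 CPM with FGF10 and 9.65, 9.90 and 14.2 CPM with BSA, a 3.72-fold fall (adjusted p = 0.0138, but from 0.0559 to 0.0867 without BSA 3, FGF10 3 or FGF10 4). Ddit3, which encodes CHOP, fell 2.03-fold (adjusted p = 0.0322) and lost the call without any 1 of the 6 libraries (from 0.0632 to 0.173). Of 20 genes of the p53 and senescence list 3 rose and 1 fell, with a median of -0.07, and 0 were called without FGF10 4 or with the BSA libraries summed.

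Cell division genes were higher in all FGF10 libraries, but the number called differed widely between fits. The 40 mitosis genes summed to 2357, 2193 and 3261 CPM with FGF10 and to 1001, 970.2 and 926.8 CPM with BSA (exact permutation p = 0.1, two-sided, the smallest possible). The sums of many other lists reached the same p, as described with the markers of other cells below. The 2 groups were far apart for the mitosis genes. Of these genes 39 were higher with FGF10, with a median of 1.47, yet Aurka, a mitotic kinase, was the 1 that passed (3.23-fold, adjusted p = 0.0342), and it lost the call without any 1 of the 6 libraries (adjusted p from 0.0577 to 0.16). Mki67, the common marker of cycling cells, stood at 55.9, 44.7 and 76.8 CPM with FGF10 and 22.8, 24.4 and 21.2 CPM with BSA (2.60-fold, 1.38 ± 0.76, adjusted p = 0.305). Its groups did not overlap, and its adjusted p ran from 0.000803, in a fit of the 6 libraries alone, to 0.588 over the alternatives. It passed in that fit, in limma voom, with the BSA libraries also summed, and without 0 h replicate 1 or all 0 h libraries. In the fit of the 6 libraries alone and in that without 0 h replicate 1, 39 of the 40 mitosis genes rose. Of all genes, 15.2% rose in the first of these fits and 1073 of 18634 in the second. In every fit that left out 1 of the 6 libraries, 0 mitosis genes rose. The 0 h libraries, part of the reported fit, were uneven for this list, at sums of 211, 283 and 2243 CPM.

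Among 40 genes of DNA replication, all higher with FGF10 (median 1.11), 1 rose, the flap endonuclease Fen1 (2.66-fold, adjusted p = 0.0369, lost without any 1 of the 6 libraries, from 0.0572 to 0.175). The number that rose was 40 of 40 in the fit of the 6 libraries alone, beside 15.2% of all genes. Without 0 h replicate 1 it was 37, beside 1073 of 18634 genes. The 0 h libraries had sums of 543, 556 and 1987 CPM for the replication list. The replication-dependent histone H2ac11 stood at 28.1, 21.03 and 28.3 CPM with FGF10 and 4.11, 3.36 and 3.98 CPM with BSA, without overlap (6.75-fold, adjusted p = 0.0342, lost without any 1 of the 6, from 0.0686 to 0.128). Histone copies are near-identical, and the libraries were selected for poly(A), so its level is uncertain.

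Genes of ribosome assembly and respiration were higher in most cases, with few called. All 30 ribosome biogenesis genes were higher with FGF10, with a median of 0.23, of which 3 rose, or 0 without FGF10 4 and with the BSA libraries summed. The pseudouridine synthase Dkc1 had 102, 99.8 and 121 CPM with FGF10 and 62.4, 62.8 and 68.9 CPM with BSA (1.67-fold, adjusted p = 0.0135, but from 0.0629 to 0.0895 without BSA 2_1, BSA 2_2 or FGF10 4). The 13 protein genes of the mitochondrial genome were all higher, with a median of 1.11, and mt-Nd1 was the 1 that rose (2.38-fold, adjusted p = 0.036, lost without any 1 of the 6, from 0.0846 to 0.137). Nuclear genes of oxidative phosphorylation had a median of 0.20, and 1 of 32 rose.

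**Figure D3:**
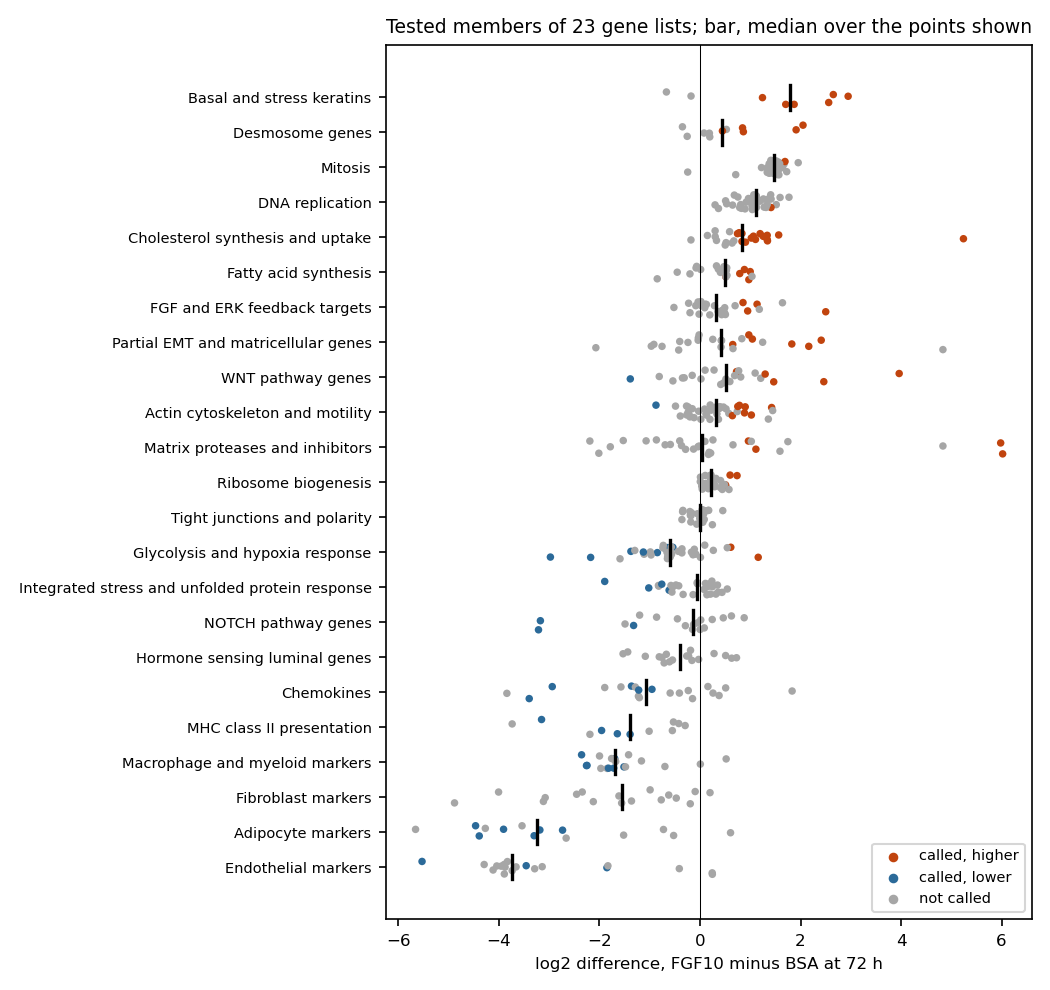
Log2 difference of FGF10 minus BSA at 72 h (horizontal axis) for the tested members of 23 gene lists (rows), each point 1 gene, coloured where called, with bars at the median of the points. The medians run from 1.79 for basal and stress keratins to -3.74 for endothelial markers, beside -0.01 over all tested genes.

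Genes linked to invasion and to a partial form of EMT rose in part, while the wider set of mesenchymal genes did not. Of 24 partial EMT and matricellular genes 6 rose and 0 fell (median 0.42), and 4 to 7 were called when 1 library was left out. The matrix glycoprotein Tnc had 36.1, 69.9 and 78.3 CPM with FGF10 and 13.8, 10.7 and 10.05 CPM with BSA, and the mucin-type protein Pdpn 17.7, 17.9 and 20.3 CPM with FGF10 and 4.31, 3.59 and 4.56 CPM with BSA. FGF10 replicate 2 was the lowest of its group for Tnc, though still above every BSA library. Spp1, the secreted phosphoprotein osteopontin, had 488, 704 and 858 CPM with FGF10 and 199, 209.5 and 169 CPM with BSA (3.55-fold, 1.83 ± 0.29, adjusted p = 0.00378). Fhl2, an adaptor that shuttles between focal adhesions and the nucleus, rose 2.06-fold (adjusted p = 0.00406), and all 4 of these calls were firm. Mesenchymal structural genes had a median of -0.80, with 15 of 17 lower, 1 rise and 1 fall. Fibroblast markers and pericyte markers were lower with FGF10 too, with medians of -1.56 and -1.90, and their part in this was not tested. The rise was that of the N-cadherin gene Cdh2, also firm, at 6.54, 5.66 and 8.96 CPM with FGF10 and 1.13, 0.884 and 1.73 CPM with BSA. The fall was that of the collagen chain Col5a1 (2.69-fold lower, adjusted p = 0.00944, or 0.0663 without FGF10 4). Of 11 cadherins and catenins Cdh2 was the 1 called.

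Of 13 EMT transcription factors 1 rose and 1 fell, with a median of 0.23, beside 3.01% and 2.98% of all tested genes. The rise was Tead1, a partner of YAP, at 29.3, 26.9 and 29.8 CPM with FGF10 and 23.9, 19.6 and 20.8 CPM with BSA (1.34-fold, adjusted p = 0.0491, lost without any 1 of the 6, from 0.0668 to 0.198). The fall was Zeb2, at 0.577, 0.338 and 0.244 CPM with FGF10 and 5.49, 4.36 and 8.49 CPM with BSA. Zeb2 is also expressed by macrophages and stromal cells, whose markers were lower with FGF10 as well, and the part of these cells in its fall was not tested. Elf3, an epithelial ETS factor, was the 1 of 17 epithelial identity regulators called, at 35.7, 30.0 and 29.6 CPM with FGF10 and 65.4, 58.0 and 59.3 CPM with BSA (1.92-fold lower, adjusted p = 0.00944, or 0.0663 without FGF10 4).

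Adhesion and matrix genes moved in both directions. Of 25 integrins and adaptors 3 rose and 1 fell (median -0.05), and of 24 laminins and basement membrane genes 3 rose and 2 fell (median 0.02). Integrin rises numbered 0 without FGF10 4 and 1 with the BSA libraries summed, laminin rises 1 in both, and the falls of either list 0 whenever 1 of the 6 libraries was left out. The laminin-binding integrin chain Itga3 stood at 50.6, 68.9 and 78.7 CPM with FGF10 and 32.1, 35.4 and 40.1 CPM with BSA (1.84-fold, adjusted p = 0.00699, or 0.0533 without FGF10 4). Col18a1, the precursor of endostatin, had 83.5, 94.9 and 129 CPM with FGF10 and 22.1, 24.2 and 37.9 CPM with BSA. The groups did not overlap, and its 3.65-fold rise (1.87 ± 0.24, adjusted p = 0.00115) was firm. Itgb6 and Itgb4 rose 1.96-fold and 1.43-fold (adjusted p of 0.0413 and 0.0493) and both lost the call without BSA 2_1, BSA 2_2, BSA 3, FGF10 3 or FGF10 4 (adjusted p from 0.086 to 0.262). The collagen receptor chain Itga1 fell 2.36-fold (adjusted p = 0.0442) and the basement membrane collagen Col4a2 2.24-fold (adjusted p = 0.0353), both lost without any 1 of the 6 (from 0.0754 to 0.175).

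Matrix proteases and their inhibitors had 4 rises and 0 falls among 28 genes, with a median of 0.04 and 2 rises without FGF10 4 or with the BSA libraries summed. Over each group's libraries Mmp9, a gelatinase, was counted 164 times in FGF10 organoids and 3 times in BSA organoids. The ratio was 67.1, with a 95% interval for counting error alone of 22.5 to 329 (adjusted p = 0.00819). Its FGF10 libraries were uneven, at 0.321, 7.77 and 4.08 CPM, against 0, 0.118 and 0.0577 CPM with BSA. Its call held without any 1 of the 6 libraries but not in limma voom (adjusted p = 0.0539) nor in a fit of the 72 h groups alone with the BSA libraries summed (0.11). Serpinb2, an inhibitor of plasminogen activators, was counted 76 times in FGF10 organoids and 1 time in BSA organoids (a 93.2-fold ratio, 95% counting interval of 16.2 to 3730.3, adjusted p = 0.00505), and its call was firm. Timp1, a metalloproteinase inhibitor, rose 2.16-fold (adjusted p = 0.0206, but from 0.0717 to 0.102 without BSA 2_1, BSA 2_2, BSA 3, FGF10 3 or FGF10 4).

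Actin genes rose while guidance genes were mixed. Of 39 actin cytoskeleton genes 7 rose and 1 fell (median 0.32), with 1 to 7 rises when 1 library was left out and 1 without FGF10 4. The filament-severing protein Cfl1 stood at 1285, 1260.3 and 1432 CPM with FGF10 and 725, 708 and 721 CPM with BSA, a firm 1.85-fold rise (adjusted p = 0.00531). Actb, the cytoplasmic actin often used as a constant reference, stood at 22164, 22077 and 22594 CPM with FGF10 and 6951, 7985 and 9949 CPM with BSA (2.69-fold, adjusted p = 0.0199). Its FGF10 libraries lie close together and far above the BSA libraries. Its call was lost with the BSA libraries summed (adjusted p = 0.085) and without BSA 2_1, BSA 2_2, BSA 3, FGF10 3 or FGF10 4 (from 0.0532 to 0.0899). Of 29 axon guidance genes 2 rose and 2 fell (median 0.14), beside 3.01% and 2.98% of all tested genes, and 0 were called without FGF10 4. Sema3b rose 4.51-fold (adjusted p = 0.0225, but from 0.0945 to 0.128 without BSA 2_1, BSA 2_2 or FGF10 4), and Nrp1, a receptor for semaphorins and VEGF also found on vessels, fell 5.57-fold (adjusted p = 0.0239, lost without any 1 of the 6, from 0.0505 to 0.112).

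WNT pathway genes rose more often than they fell. Of 23 tested 5 rose and 1 fell, with a median of 0.52, and 2 to 5 rose when 1 library was left out. Wif1, a secreted WNT inhibitor, stood at 37.0, 41.2 and 42.5 CPM with FGF10 and 6.72, 6.95 and 8.20 CPM with BSA. The groups were far apart, and the 5.52-fold rise (2.46 ± 0.35, adjusted p = 0.0031) was firm. So was the 2.76-fold rise of Tcf7, a nuclear effector of WNT signalling, at 15.5, 15.7 and 20.96 CPM with FGF10 and 7.54, 5.77 and 5.54 CPM with BSA (1.47 ± 0.21, adjusted p = 0.0022). The ligand Wnt7b rose 1.66-fold (adjusted p = 0.0294, but from 0.0779 to 0.154 without BSA 2_1, BSA 2_2, BSA 3, FGF10 3 or FGF10 4). The related feedback inhibitors Nkd2 and Nkd1 moved apart. Nkd2 rose 2.46-fold (adjusted p = 0.0181, but from 0.0582 to 0.107 without BSA 2_1, BSA 2_2, BSA 3 or FGF10 4) and Nkd1 fell 2.62-fold (adjusted p = 0.0233, but from 0.0521 to 0.12 without BSA 2_1, BSA 2_2, BSA 3, FGF10 2 or FGF10 4).

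Of 18 NOTCH pathway genes 3 fell and 0 rose, with a median of -0.14, and the falls numbered 1 without FGF10 4 and 2 with the BSA libraries summed. The ligand Dll4 had 0.449, 0.338 and 0.366 CPM with FGF10 and 2.36, 2.83 and 5.48 CPM with BSA, a firm 9.04-fold fall (adjusted p = 0.00332). Notch4 fell 2.50-fold (adjusted p = 0.0104, or 0.0546 without BSA 3 and 0.0593 without FGF10 4). Both genes are known from vessels, BSA replicate 3 was highest for both as it was for the vessel marker Pecam1, and the part of endothelial RNA in these falls was not tested. The epithelial ligand Jag1 did not pass, with means of 29.2 ± 5.01 CPM in FGF10 organoids and 21.2 ± 1.11 in BSA organoids (adjusted p = 0.123).

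Of 31 TGF-beta, activin and BMP genes 2 rose and 1 fell, with a median of -0.05, or 1 and 0 without FGF10 4. These counts are near the shares of all tested genes (3.01% rose and 2.98% fell) and are no result about the family. The EGF and IGF counts that follow also stand beside these shares. Id4, an inhibitor of helix-loop-helix factors found in basal mammary cells, stood at 167, 149 and 219 CPM with FGF10 and 47.6, 42.1 and 44.0 CPM with BSA, a firm 4.005-fold rise (2.002 ± 0.35, adjusted p = 0.00819). The activin antagonist Fst rose 2.22-fold (adjusted p = 0.00697, or 0.0532 without FGF10 4). Of 18 EGF family genes 2 rose and 0 fell (median -0.09), and 0 rose without FGF10 4 or with the BSA libraries summed. Nrg1, a ligand of ERBB3 and ERBB4, had 11.2, 10.1 and 16.6 CPM with FGF10 and 3.44, 4.18 and 3.75 CPM with BSA, without overlap (3.34-fold, adjusted p = 0.0315, lost without any 1 of the 6, from 0.0583 to 0.155). In the list of IGF-binding proteins 1 of 14 rose, the protease Pappa that cleaves them (3.09-fold, adjusted p = 0.0176, but from 0.0512 to 0.0835 without BSA 2_1, BSA 2_2, BSA 3, FGF10 3 or FGF10 4), and the median was -0.46.

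Lineage genes of the gland did not move as blocks outside the keratins. Of 29 basal and myoepithelial genes 4 rose and 3 fell (median -0.05). The rises were Krt14, Krt5, Krt17 and Nrg1, and the falls were contractile genes, Myh11, Mylk and Cnn1. The falls numbered 0 without FGF10 4 and 1 with the BSA libraries summed, and Myh11 lost its call without BSA 2_2, BSA 3, FGF10 2 or FGF10 4 (adjusted p from 0.0509 to 0.117). The myosin kinase Mylk stood at 37.5, 41.5 and 19.98 CPM with FGF10 and 86.0, 87.7 and 93.8 CPM with BSA (2.71-fold lower, adjusted p = 0.0193, but from 0.0554 to 0.0931 without BSA 2_1, BSA 2_2, BSA 3 or FGF10 4). Cnn1, a smooth muscle calponin, had 116, 146 and 83.5 CPM with FGF10 and 236, 239 and 270.0 CPM with BSA (2.16-fold lower, adjusted p = 0.029). Its call was lost with the BSA libraries summed (adjusted p = 0.0788) and without BSA 2_1, BSA 2_2, BSA 3, FGF10 2 or FGF10 4 (from 0.0766 to 0.159). FGF10 replicate 4 was lowest for both genes and no library overlapped. The smooth muscle actin Acta2 overlapped fully, at 4478, 4864 and 2738 CPM with FGF10 and 3435, 3812 and 4474 CPM with BSA (adjusted p = 0.945). Pericyte and smooth muscle markers, which share these contractile genes in part, also summed lower with FGF10, and their part was not tested.

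Of 21 luminal progenitor and alveolar genes 1 rose and 2 fell (median -0.27). The folate receptor Folr1 fell 3.02-fold to 40.2, 41.2 and 24.3 CPM with FGF10, against 105, 114 and 99.8 CPM with BSA (-1.59 ± 0.27, adjusted p = 0.00531), and the call was firm. The proton pump subunit Atp6v1b1 fell 3.04-fold (adjusted p = 0.00697), a call lost in 1 alternative, a fit of the 72 h groups alone with the BSA libraries summed (0.0652). Wfdc2, a secreted protease inhibitor, rose 2.67-fold to 882, 989 and 1287 CPM with FGF10, against 346, 386 and 449.9 CPM with BSA (adjusted p = 0.0105, but from 0.052 to 0.0663 without BSA 2_1, BSA 2_2 or FGF10 4). Of 18 hormone sensing luminal genes edgeR called 0 (median -0.41), with 5 lower at an unadjusted p under 0.05. DESeq2 called 2 lower, limma voom 6 lower and 1 higher, and 8 fell in the fit of the 6 libraries alone, where 14.6% of all genes fell. The closest were the stem cell glycoprotein Prom1 and the prolactin receptor Prlr. Prom1 stood at 48.1, 62.2 and 40.5 CPM in FGF10 organoids and 135, 132 and 141 CPM in BSA organoids (adjusted p = 0.0512). Prlr averaged 544 ± 98.4 CPM in FGF10 organoids and 1157 ± 36.5 in BSA organoids (adjusted p = 0.083). Of 14 milk protein and fat globule genes 1 fell (median -0.36), the fat globule protein Btn1a1 (2.32-fold lower, adjusted p = 0.0215, but from 0.069 to 0.112 without BSA 2_1, BSA 2_2, FGF10 3 or FGF10 4).

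Cytokines of epithelial origin and chemokines went in opposite directions. Of 18 epithelial cytokines and alarmins 4 rose and 1 fell (median 0.43), and of 20 chemokines 5 fell and 0 rose (median -1.08). When 1 of the 6 libraries was left out, 1 to 4 cytokines rose and 1 to 2 chemokines fell, with 1 of each without FGF10 4, and both counts were 2 with the BSA libraries summed. Il19, of the IL-10 family that signals to keratinocytes, stood at 3.46, 5.15 and 8.77 CPM with FGF10 and 0.616, 0 and 0.289 CPM with BSA, a firm 18.3-fold rise (4.19 ± 0.64, adjusted p = 0.00332). Its relative Il24 had 1.48, 2.53 and 2.68 CPM with FGF10 and 0.205, 0 and 0 CPM with BSA (adjusted p = 0.00984, or 0.0516 without FGF10 4). Neither gene overlapped between the groups, and both were near 0 with BSA. The alarmin Il33 rose 10.3-fold to 16.8, 21.9 and 31.7 CPM with FGF10, against 2.05, 1.65 and 3.12 CPM with BSA (adjusted p = 0.0138), and Tslp rose 4.56-fold (adjusted p = 0.0159). Il33 lost its call without BSA 2_1, BSA 2_2, BSA 3 or FGF10 4 (adjusted p from 0.0531 to 0.075) and Tslp without BSA 2_1, BSA 2_2 or FGF10 4 (from 0.0722 to 0.101). Il6, an inflammatory cytokine, was at 0 counts over the FGF10 libraries and at 35 over the BSA libraries. With a floor of 3 counts for the FGF10 group it was at least 9.51-fold lower (adjusted p = 0.0492, lost without any 1 of the 6, from 0.0865 to 0.177).

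The B cell chemokine Cxcl13 stood at 28.9, 31.1 and 8.41 CPM with FGF10 and 271, 252 and 196 CPM with BSA. All FGF10 libraries were far below the BSA libraries, and the fall was 10.5-fold (-3.40 ± 0.60, adjusted p = 0.0111). The call was lost in 1 alternative, a fit of the 72 h groups alone with the BSA libraries summed (0.0517). Cxcl16, a membrane-bound chemokine, fell 1.94-fold (adjusted p = 0.0115, or 0.0513 without BSA 3 and 0.0799 without FGF10 4). Nos2, the inducible nitric oxide synthase, fell to 1.09, 0.338 and 0.853 CPM with FGF10, against 8.67, 8.54 and 8.08 CPM with BSA, a firm 10.7-fold fall (-3.42 ± 0.53, adjusted p = 0.00332). Macrophage markers (median -1.70, 7 of 19 fell) and fibroblast markers (median -1.56) were lower as well, and their part in the chemokine and Nos2 falls was not tested. Of 32 interferon-stimulated genes 1 rose and 1 fell (median -0.08), near the shares of all tested genes (3.01% and 2.98%). The rise was the membrane protein Ifitm3, at 2799.9, 2974 and 4158 CPM with FGF10 and 1144, 1320.3 and 1166 CPM with BSA (2.74-fold, adjusted p = 0.0104, but from 0.052 to 0.0663 without BSA 2_1, BSA 3 or FGF10 4). Of 23 antimicrobial and acute phase genes 1 rose and 2 fell (median -0.51).

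Antigen presentation genes of MHC class II fell. Of 11 tested 4 fell, 0 rose and all 11 were lower, with a median of -1.39, and 2 fell without FGF10 4 or with the BSA libraries summed. The beta chain H2-Ab1 stood at 9.24, 6.76 and 3.90 CPM with FGF10 and 57.6, 70.2 and 49.1 CPM with BSA, and the invariant chain Cd74 at 8.66, 8.36 and 9.32 CPM with FGF10 and 21.4, 22.6 and 25.2 CPM with BSA. Neither overlapped, and the falls of 8.90-fold (adjusted p = 0.0031) and 2.62-fold (adjusted p = 0.00844) were firm. The inflammasome sensor Naip5 fell 8.13-fold to 4.36, 5.66 and 3.29 CPM with FGF10, against 39.8, 35.4 and 32.4 CPM with BSA (-3.02 ± 0.32, adjusted p = 0.000593), also firm, though it has close paralogs. Macrophage markers were lower with FGF10 too, at the values below, and their part in these falls was not tested.

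Other genes among the largest changes fell outside these groups. Of the rises, Pou2af1, a transcriptional coactivator best known from B cells, stood at 10.1, 10.5 and 12.7 CPM with FGF10 and 1.69, 1.30 and 2.25 CPM with BSA (6.34-fold, 2.66 ± 0.38, adjusted p = 0.0022). The cyclic GMP-dependent kinase Prkg2 had 18.03, 16.05 and 23.6 CPM with FGF10 and 3.08, 3.06 and 3.75 CPM with BSA (5.83-fold, adjusted p = 0.00294). The lysophosphatidic acid receptor Lpar3 rose 5.07-fold (2.34 ± 0.25, adjusted p = 0.000593) and Fam167a 5.04-fold (adjusted p = 0.000593). These 4 calls were firm, with no overlap between the groups, which the choice of the largest changes required. The interferon-inducible Ifi202b rose 5.65-fold and unevenly, at 3.02, 9.38 and 7.92 CPM with FGF10 and 1.18, 0.943 and 1.44 CPM with BSA (adjusted p = 0.00466), a firm call in a gene with close copies. The salt cotransporter Slc12a3 rose 7.59-fold (adjusted p = 0.0137, but from 0.0629 to 0.0711 without BSA 2_1, BSA 2_2 or FGF10 4) and Nt5dc2 7.55-fold (adjusted p = 0.0187, but from 0.0708 to 0.0894 without BSA 2_1, BSA 2_2, BSA 3 or FGF10 4).

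Among the falls, Acsl6, a long-chain acyl-CoA synthetase, stood at 4.11, 2.96 and 1.77 CPM with FGF10 and 26.6, 22.98 and 21.1 CPM with BSA (7.998-fold lower, adjusted p = 0.000626). The hormone precursor Agt had 1.22, 0.591 and 0.122 CPM with FGF10 and 5.18, 6.78 and 5.37 CPM with BSA (8.90-fold, adjusted p = 0.00953). Both calls were firm, and FGF10 replicate 4 was lowest for both. The peptide hormone Cck fell 9.30-fold to 20.3, 18.9 and 3.59 CPM with FGF10, against 138, 141 and 117 CPM with BSA (adjusted p = 0.0107, lost in 1 alternative, a fit of the 72 h groups alone with the BSA libraries summed, 0.0817). Muc13, a membrane mucin, fell 9.64-fold (adjusted p = 0.0246, but from 0.0637 to 0.138 without BSA 2_1, BSA 2_2, BSA 3, FGF10 2 or FGF10 4) and Pkib, an inhibitor of protein kinase A, 13.4-fold (adjusted p = 0.0267, lost without any 1 of the 6, from 0.0631 to 0.112). Pmp22, a myelin protein that epithelia also make, fell 2.55-fold (adjusted p = 0.00221), a firm call and the 1 fall among 7 nerve and Schwann cell markers.

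**Figure D4:**
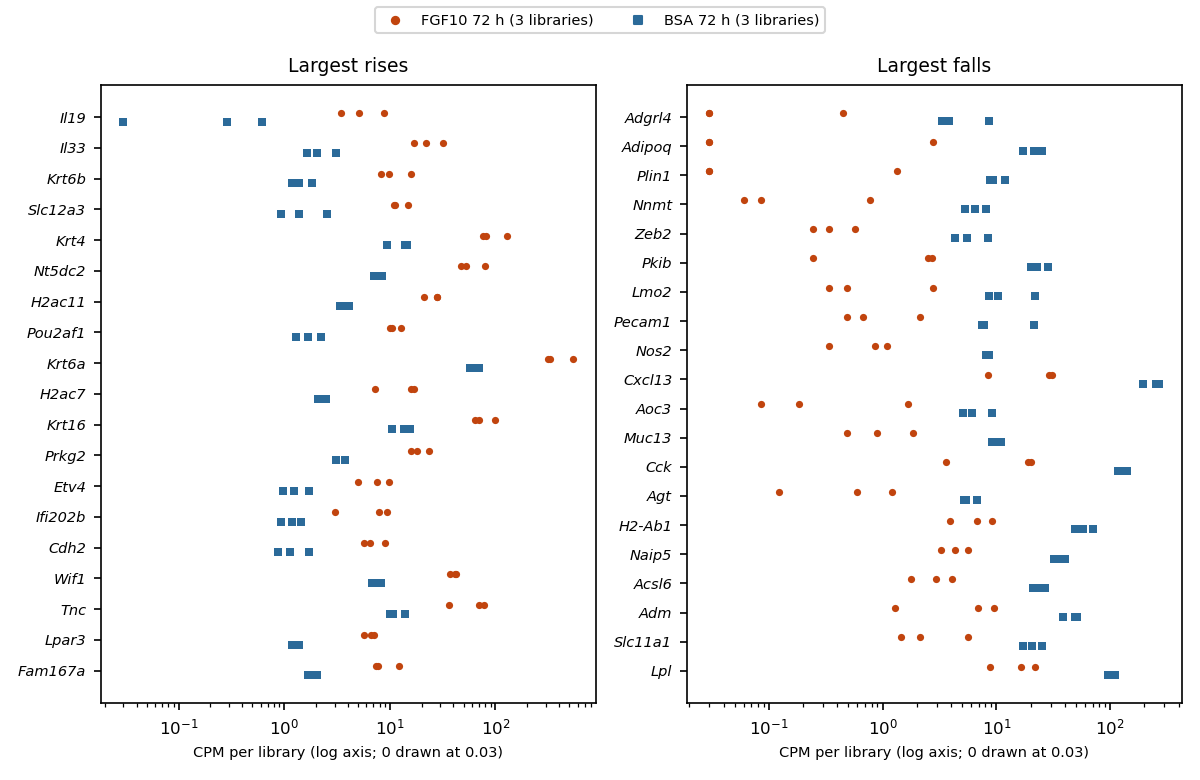
CPM per library (horizontal log axis, 0 drawn at 0.03) for 19 of the largest called rises (left) and the 20 largest called falls (right), ordered by size; circles are FGF10 72 h libraries and squares BSA 72 h libraries. The groups do not overlap for any gene shown, which the choice required, and for some falls, such as Adipoq at 2.76, 0 and 0 CPM with FGF10, replicate 2 holds nearly all the signal.

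Markers of fat cells, vessels, macrophages, pericytes and fibroblasts were lower with FGF10. Adipocyte markers summed to 201.7, 156.4 and 114.5 CPM with FGF10 and 651.2, 667.4 and 666.1 CPM with BSA, and of 14 tested 6 fell and 0 rose (median -3.24). Endothelial markers summed to 52.0, 30.8 and 26.4 CPM with FGF10 and 148.7, 152.4 and 357.8 CPM with BSA, and of 19 tested 3 fell and 0 rose (median -3.74). Both sums were apart between the groups, and BSA replicate 3 held the most endothelial RNA. Macrophage and myeloid markers summed to 576, 434 and 360.3 CPM with FGF10 and 803, 839 and 645 CPM with BSA, with 7 of 19 falling and 0 rising (median -1.70). Pericyte markers summed to 110.4, 122 and 103 CPM with FGF10 and 159.5, 169.4 and 235.8 CPM with BSA, with 1 of 10 falling (median -1.90). Fibroblast markers without Gpx3, which outweighs the other genes, summed to 50.5, 78.8 and 34.8 CPM with FGF10 and 104, 102 and 173 CPM with BSA, and edgeR called 0 of 17 (median -1.56), with 7 lower at an unadjusted p under 0.05. DESeq2 called 4 of these markers lower and limma voom 3, and 6 fell in the fit of the 6 libraries alone, where 14.6% of all genes fell. Each of these 5 sums had an exact permutation p of 0.1 (two-sided), the smallest possible. Of 7 tested lymphocyte and mast cell markers edgeR called 0 (median 0), with 1 lower at an unadjusted p under 0.05, in DESeq2 and in limma voom. The whole list summed higher with FGF10, at 82.2, 78.1 and 86.0 CPM, against 74.4, 74.4 and 69.3 CPM with BSA. Kit outweighs its other genes, and leaving it out turned the direction. Without Kit, their sum was 4.81, 3.72 and 5.24 CPM with FGF10 and 6.11, 5.30 and 5.72 CPM with BSA.

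The defining genes show where the difference lay. The fat cell lipid carrier Fabp4 had 41.7, 0.169 and 0.122 CPM with FGF10 and 269, 262 and 288 CPM with BSA, so that FGF10 replicate 2 held nearly all of it in its group, and it did not pass (adjusted p = 0.15). Adipoq was at 0 counts in FGF10 replicates 3 and 4, as were Plin1, Lep and Cidec. The lipase Lpl stood at 21.8, 16.4 and 8.77 CPM with FGF10 and 107, 110.4 and 95.1 CPM with BSA (adjusted p = 0.0111, or 0.0646 without FGF10 4). The vessel junction gene Pecam1 had 2.12, 0.676 and 0.487 CPM with FGF10 and 7.75, 7.48 and 21.5 CPM with BSA (adjusted p = 0.034, but from 0.0613 to 0.167 without BSA 2_1, BSA 2_2, BSA 3, FGF10 3 or FGF10 4). The macrophage receptor Csf1r had 0.898, 0.760 and 1.04 CPM with FGF10 and 2.77, 2.65 and 2.37 CPM with BSA (adjusted p = 0.0126, or 0.0517 without FGF10 3 and 0.0575 without FGF10 4). The fibroblast receptor Pdgfra was level, at 2.18, 2.28 and 2.19 CPM with FGF10 and 2.001, 1.59 and 2.19 CPM with BSA. The called falls numbered 0 for adipocyte, endothelial and macrophage markers without FGF10 4, and 1, 1 and 3 with the BSA libraries summed.

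**Figure D5:**
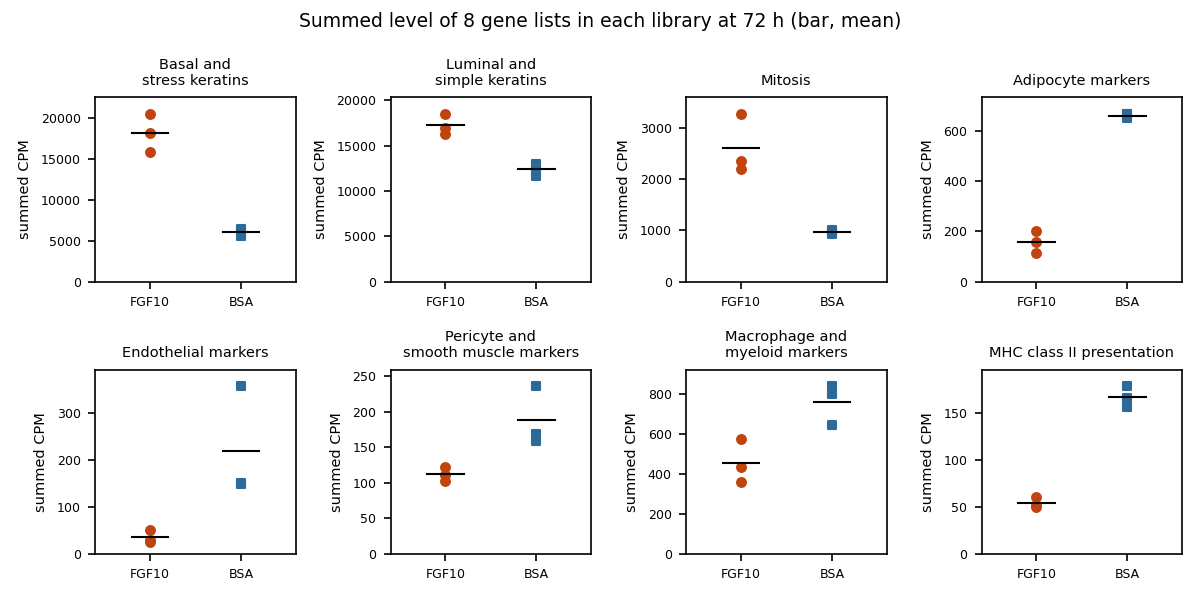
Summed CPM (vertical axes, from 0) of 8 gene lists in each 72 h library, FGF10 as circles on the left and BSA as squares on the right of each panel, with bars at the mean of 3. Basal and stress keratins and mitosis genes lie higher in all FGF10 libraries, while adipocyte markers lie at 114.5 to 201.7 with FGF10 and 651.2 to 667.4 with BSA, and the 2 groups are apart in every panel.

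Whether the response to FGF10 at 72 h differs from that at 36 h was tested as the difference of the 2 effects, each against its own BSA group. edgeR called 0 of 18140 genes (0%), with 998 at an unadjusted p under 0.05, limma voom called 0, and the Wald test of DESeq2 called 9 in each direction. The gene with the smallest p was Krt16, whose log2 difference was 2.56 at 72 h and 0.52 at 36 h, a change of 2.04 ± 0.36 (adjusted p = 0.523). The DESeq2 test called Krt16 (adjusted p = 0.00121), Krt14 (0.0202) and Krt5 (0.0255) among those whose effect was larger at 72 h. Krt14 averaged 11960.2 ± 1666 CPM in FGF10 organoids and 3666 ± 263 in BSA organoids at 72 h. At 36 h it averaged 4772 ± 296 CPM in FGF10 organoids and 3096 ± 253 in BSA organoids (SD, n = 3 each). Both keratin differences failed the edgeR correction. For the ERK target Dusp6 the effect was 0.95 at 72 h and 1.13 at 36 h (difference adjusted p = 0.965), and for Hmgcs1 it was 1.34 and 1.17 (adjusted p = 0.969). At 36 h edgeR called 425 genes (2.34%), and a lower or higher count at 1 time shows no difference between the times.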

How the data were processed

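Per the labels' protocols, mouse mammary organoid RNA was sequenced from stranded mRNA libraries. The authors deposited raw counts of paired fragments over exons. Per the file headers, featureCounts 2.0.1 made them by gene name, ignoring strand and dropping multimapping fragments. The submitters' processing notes name GRCm39, HISAT2 2.2.1 and cutadapt 1.9.1 beside FastQC, DESeq2 and HTSeq. Where notes and headers differ, the headers were followed. Without strand, a gene and its antisense partner cannot be told apart, and paralogs lose shared reads.

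filterByExpr (minimum count 10, total 15) kept 18140 of 54456 genes. Genes were tested in edgeR 4.0.16 (R 4.3.3) by quasi-likelihood with robust dispersions and TMM scaling, 1 fit to all 5 groups (10 residual degrees of freedom), and Benjamini-Hochberg adjustment over all tested genes. Each SE was computed as the size of the log2 difference divided by √F. For 3 or fewer counts in a group, ratios with 95% intervals or a floor of 3 counts over the group are given, which cover counting error only, since fragments carry no molecular tags. On simulated counts the fit called 49 of 100 genes changed by log2 1 and 88 of 100 changed by log2 2, with 8 false calls among 17736 genes. The simulation changed 200 genes, none at the lowest levels, in the FGF10 72 h group alone. All groups otherwise had equal means, unlike the data, so these rates may not hold for the data.

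The 49 gene lists, the panel, the tests and the genes compared were chosen with earlier results of these data known. Named genes were a panel, the 20 largest called rises and falls (5 CPM or more on average in the group where higher, libraries apart), and up to 5 called members of each list, or 2 where none was called. Other members given beside them, and Jag1, Acta2, Actb, Cnn1, Idi1, Sqle and Srebf2 among them, were picked from the lists after values were seen. Some genes that met the rule are not reported here. The alternatives were DESeq2 1.42.0 (size factors and Wald test), limma 3.58.1 voom with quality weights, other filters, replicate blocks, fits without other groups, summed BSA libraries and leaving out each library. Promoter sequences are from RefSeq on GRCm38.p6.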

Additional observations from a re-analysis of the deposited data

How the results depend on the processing

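Of 154 called genes named, 44 kept the call under all 18 alternatives, 110 lost it in some, and 0 reversed. The counts of genes higher and lower with FGF10 at 72 h were 546 and 541. They were 135 and 142 with BSA 2_1 and 2_2 summed, 962 and 1015 in the DESeq2 Wald test, 2570 and 2341 in limma voom, 2559 and 2466 with only the groups compared, and 1991 and 1870 when the BSA libraries were also summed, a fit chosen after the data were seen. Without the 0 h libraries they were 1043 and 828, without 0 h replicate 1 they were 1073 and 784, and without FGF10 36 h replicate 4 they were 1095 and 855. Leaving out 1 of the 6 libraries gave 88 to 296 higher and 60 to 263 lower. DESeq2 size factors gave 499 and 545, no filter 530 and 526, and at least 10 counts in 3 libraries 552 and 535. The cause of these shifts was not tested. For the difference between 72 h and 36 h, DESeq2 called 9 higher and 9 lower. A fit with the replicate number as a block gave 535 and 550 at 72 h, sharing 826 genes with the reported calls, and 1 gene lower for the difference. Deviations from the group means correlated at 0.0772, 0.0399 and 0.139 between same-numbered FGF10 and BSA libraries at 72 h. Between differently numbered ones the correlations were all lower, from -0.101 to 0.0268. On the second component (10.1% of variance) libraries numbered 2 scored 9.75 to 11.6, and those numbered 3 scored -15.7 and -19.8. Whether the numbers mark shared animals or days is not labelled, and the reported fit took no pairs. With 3 libraries a group, 49 of 100 simulated 2-fold changes were called, in a simulation with fewer changed genes than were called here. Genes at a few counts rest on counting error.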
